A study of Mus musculus with 12 samples.

Results

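The genes described here are those of the enzymes that modify drugs, dietary compounds and other foreign molecules, measured in mouse stomach organoids. Members were taken by symbol from the classes Cyp2, Cyp3a and Cyp4 (cytochrome P450 monooxygenases), Ces1 and Ces2 (carboxylesterases), Gsta, Gstm, Gsto, Gstp, Gstt and Mgst (glutathione transferases), Ugt (glucuronosyltransferases) and Sult (sulfotransferases), leaving out pseudogene symbols. Of 55421 gene rows, 159 symbols matched, and 85 held 10 or more counts over the 12 libraries and are the members. Of the other matching symbols, 24 held 1 to 9 counts and 50 held none. Just inside the minimum were Ces1h and Cyp2d9 with 10 counts each and Cyp4f18, Ugt1a2 and Ugt2b1 with 11 each, and just outside were Cyp2ab1 and Cyp2j8 with 7 counts each and Cyp2d12 with 6. All 85 are annotated as protein-coding. They comprise 33 cytochromes P450, 11 carboxylesterases, 22 glutathione transferases, 12 glucuronosyltransferases and 7 sulfotransferases.

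The organoids are cultures of epithelium grown in Matrigel from isolated gastric glands of wild-type mice, from the antrum, the outlet end of the stomach, or from the corpus, its body. There were 4 groups of 3 libraries: antral organoids with Wnt inhibition, antral organoids with vehicle, corpus organoids with Wnt inhibition and corpus organoids with vehicle. Each region was represented by lines 8025, 8026 and 8028, described as independent, and values of a group are given below in that order. Inhibition started on day 4 after passage, lasted 24 h, and consisted of XAV939, a tankyrase inhibitor labelled as 1 mM, in a medium that lacked exogenous Wnt and R-spondin and held Noggin-1, a bone morphogenetic protein blocker, at 100 ng/mL. Vehicle cultures, whose treatment label reads none, received DMSO in the usual medium, which held 50% L-WRN conditioned medium, a source of Wnt, R-spondin and Noggin. Effects of XAV939 and of the medium therefore cannot be told apart. Corpus medium held 20% serum and antral medium 10%, so region and serum cannot be told apart either. The labels do not say how much serum the inhibition medium held, nor how many mice the lines came from.

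As background, phase I enzymes such as cytochromes P450 and carboxylesterases add or uncover a reactive group on a foreign molecule, and phase II enzymes then attach glutathione, glucuronic acid or sulfate, which makes the product easier to export. The liver and small intestine are the best known sites, and many of the genes are controlled by ligand-activated receptors such as the aryl hydrocarbon receptor and the pregnane X receptor, or by the oxidant-responsive factor NRF2. Several of the enzymes also act on the body's own lipids, steroids, retinoids and bilirubin.

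Library totals ranged from 18858022 to 31656696 counts, so that 3 counts, the most that a reading of 0 allows, equalled 0.0948 to 0.159 CPM (counts scaled to a library of fixed size, with edgeR's TMM factors), which covers counting error only. Ribosomal-RNA-like genes took 17.2% of line 8025's antral vehicle library and 6.87% of line 8028's, against 0.839% to 3.45% in the other libraries. Both libraries of corpus line 8028 lay nearer to the antral libraries than the other corpus libraries did on the second principal component of the member genes, which held 6.59% of their variance. On the first, which held 86.7%, the 6 inhibited libraries lay between -6.67 and -4.90 and the 6 vehicle libraries between 3.74 and 8.75. A list of 9 general epithelial and gastric markers (Epcam, Cdh1, Krt8, Krt18, Krt19, Cldn18, Sox2, Pdx1 and Gata4) was abundant in every library. Its summed levels were 16680 to 18860 CPM in antral inhibited, 9261 to 10690 CPM in antral vehicle, 16710 to 18210 CPM in corpus inhibited and 8828 to 9766 CPM in corpus vehicle libraries. With inhibition 7 of the 9 passed the edgeR test as higher in each region, and 1 as lower in corpus, against 16.3% of all tested genes higher in antrum and 15.5% in corpus. Among markers of the differentiated corpus, the parietal-cell pump subunit gene Atp4b was at 0 in 11 of 12 libraries and the chief-cell lipase gene Lipf at 0 in all. The chief-cell genes Cblif and Pgc were present, Cblif at 49.8, 32.9 and 61.4 CPM in antral vehicle and 192, 173 and 68.9 CPM in corpus vehicle libraries and Pgc at 76.6, 51.1 and 59.4 CPM and 170.1, 129.7 and 61 CPM, and neither regional difference passed the test (edgeR adjusted p = 0.11 and 0.28). In bulk RNA, fewer cells of a type and less RNA per cell cannot be told apart.

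With Wnt inhibition, the summed level of the 85 genes was 14340, 13140 and 14080 CPM in antral organoids, against 4272, 3702 and 5296 CPM with vehicle. In corpus organoids it was 17980, 15900 and 12000 CPM with inhibition, against 6602, 6180 and 5840 CPM with vehicle. The inhibited and vehicle libraries did not overlap in either region. The members thus made up 1.26% to 1.38% of all counts in inhibited antral libraries, against 0.384% to 0.538% with vehicle, and 1.18% to 1.71% in inhibited corpus libraries, against 0.63% to 0.704% with vehicle. Glutathione transferase genes made up most of this sum. The omega-class gene Gsto1 alone accounted for 29.1% of the members' CPM over the 12 libraries, Gsta4 for 15.2%, Gsta1 for 9.02% and Gstm1 for 7.49%.

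**Figure D1:**
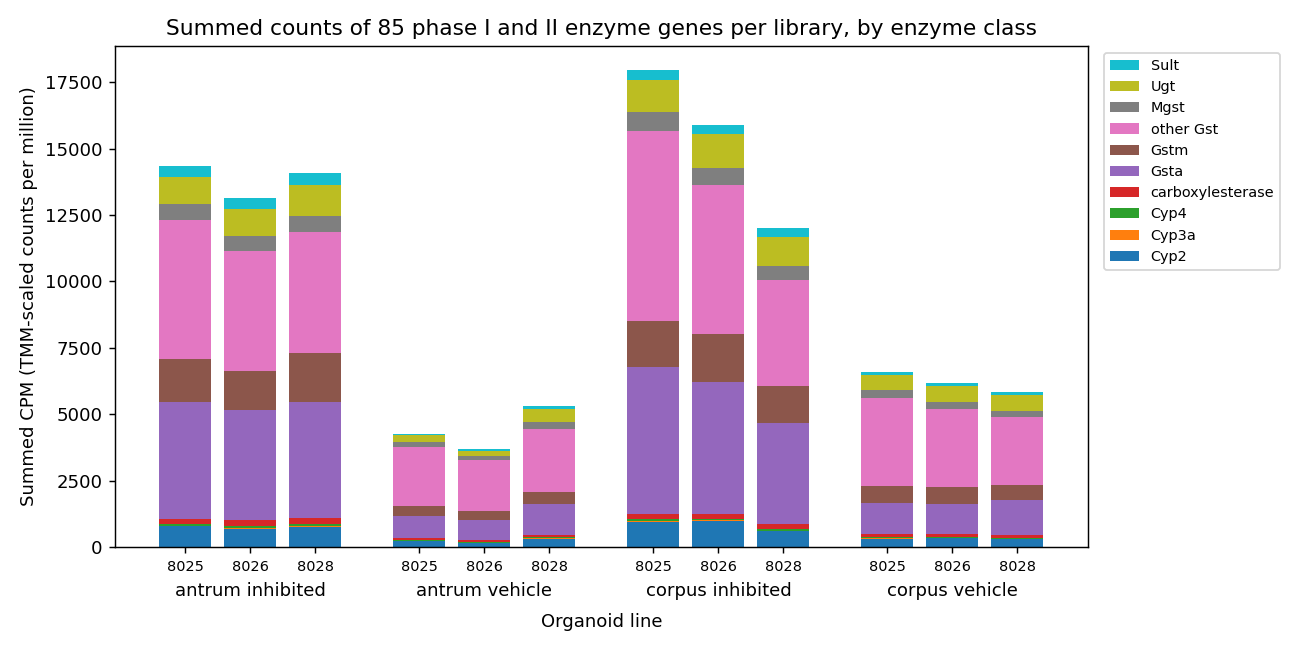
Bars give the summed CPM (TMM-scaled) of the 85 members in each of the 12 libraries, split by enzyme class, with the 3 lines of each group side by side. The 6 inhibited libraries stand between 12000 and 17980 CPM, above the 6 vehicle libraries at 3702 to 6602 CPM, and glutathione transferase classes fill most of each bar.

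Of the 85 members, 65 held enough counts to be tested. In antral organoids 43 rose with inhibition at an edgeR adjusted p below 0.05 and 4 fell, against 16.3% and 13.4% of all 16152 tested genes called higher and lower. In corpus organoids 35 rose and 3 fell, against 15.5% and 15.4% of all tested genes. The 35 genes that rose in corpus all rose in antrum too, and the 3 that fell in corpus, Cyp2u1, Cyp4v3 and Gstm5, also fell in antrum, where Ces2e was the 4th. A gene counted only where it is high is more likely to be tested. Of the 34 members with a mean of at least 10 CPM over all libraries, 28 rose and 1 fell in antrum, and 23 rose and 1 fell in corpus. That mean includes the inhibited libraries, so the cut does not remove this selection. Sult1b1, for example, passed it with vehicle means of 2.37 CPM in antrum and 2.75 CPM in corpus. The median log2 fold change of the 34 was 1.38 in antrum and 1.03 in corpus. Over all tested genes, to which no such cut was applied, it was -0.044 and -0.037. Over all 85 members, the inhibited libraries lay above the vehicle libraries without overlap for 48 in antrum and 41 in corpus, below them for 6 and 4, and overlapped for 31 and 40. Of all 21246 genes with at least 10 counts, 19.6% lay above without overlap in antrum and 16.3% in corpus, and 20.9% and 18.3% below.

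Leaving out the vehicle libraries of antral lines 8025 and 8028 left only that of line 8026 in its group, so no calls are given for that fit. The median log2 fold change of all tested genes in antrum was then -0.014, against -0.044 with all libraries. The antral count of falls went to 2 without inhibited line 8025 or 8028, or vehicle line 8025 or 8026. In those settings 8.65%, 9.94%, 9.45% and 9.22% of all tested genes were called lower in antrum, against 13.4% with all libraries. Leaving out both libraries of line 8025, or both of line 8026, ended the corpus calls of Cyp2s1, Gsta2 and Gstt2 and the antral calls of Ces1d and Cyp4f39. Without the inhibited library of corpus line 8028, 40 members rose and 5 fell in corpus. Of all tested genes, 20.5% were then called higher and 21.2% lower, against 15.5% and 15.4% with all libraries. Scaling to total counts moved the median of all genes to -0.12 in antrum and -0.19 in corpus and split the genes called in corpus into 1338 higher and 3727 lower, against 2498 and 2487 with TMM scaling, and those called in antrum into 1772 higher and 2223 lower, against 2636 and 2158. With that scaling 40 members rose and 4 fell in antrum and 33 rose and 5 fell in corpus.

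**Figure D2:**
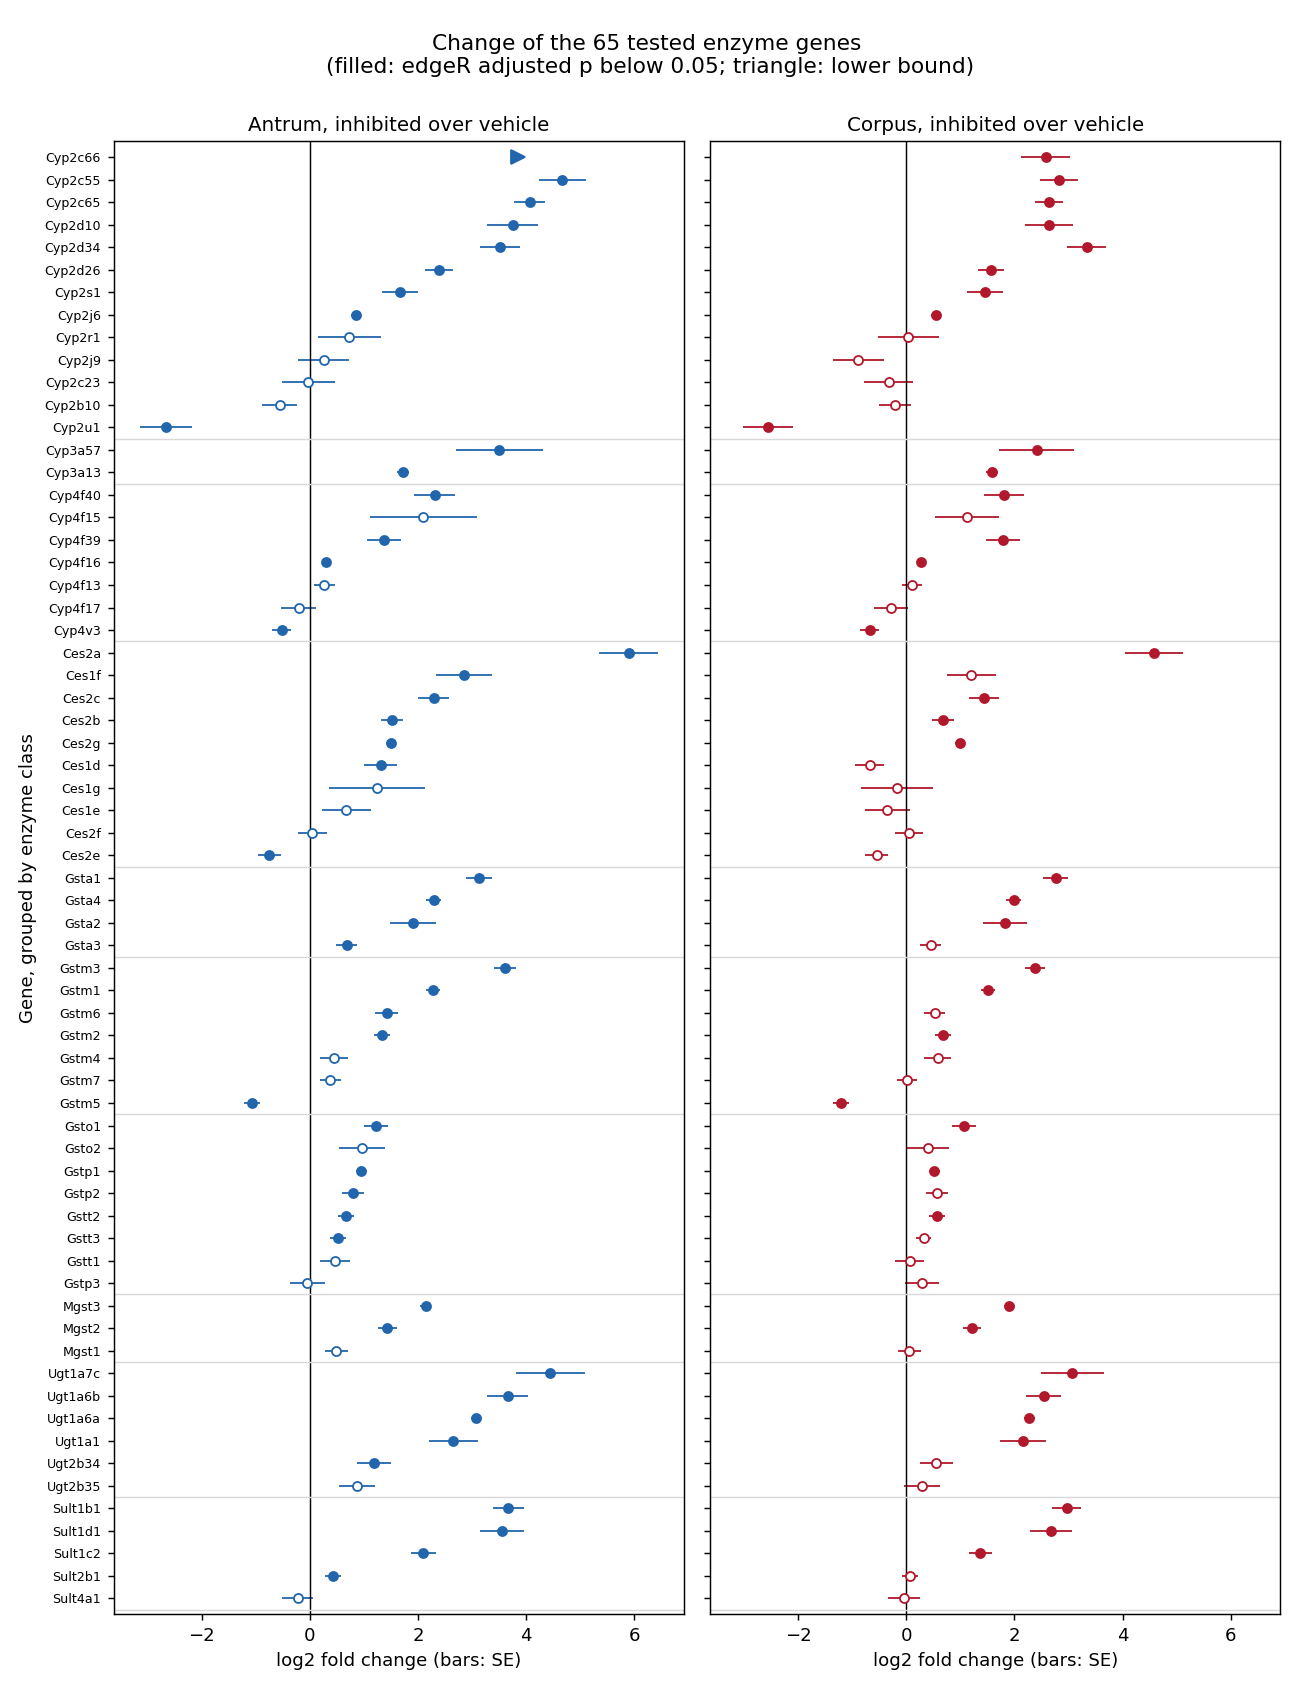
Points give the log2 fold change of inhibited over vehicle organoids for each of the 65 tested members, in antrum and in corpus, with bars for the standard error, and rows are grouped by enzyme class. Filled points passed the edgeR test, and most of them lie to the right of 0; the triangle for Cyp2c66 in antrum is a lower bound because its 3 vehicle libraries held no counts.

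The Cyp2 class, the largest family of drug-metabolising cytochromes P450, had 19 members, of which 13 were tested, and 8 rose and 1 fell in each region. Its most abundant gene was Cyp2s1, a P450 of epithelia outside the liver, at 80.5 CPM per kilobase of exon over all libraries. Cyp2s1 was at 566, 492 and 556 CPM in inhibited antral organoids, against 161, 85.5 and 259.8 CPM with vehicle. In corpus it was at 741, 784 and 416 CPM with inhibition, against 232, 252 and 222 CPM with vehicle. The groups did not overlap, although the corpus inhibited library of line 8028 and the antral vehicle library of line 8026 stood apart from the others of their groups. The log2 fold change was 1.67 ± 0.33 in antrum (SE, edgeR adjusted p = 0.003) and 1.46 ± 0.33 in corpus (edgeR adjusted p = 0.0063, or up to 0.0658 with a line left out).

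Of the 5 Cyp2c genes, 3 rose in both regions. Cyp2c65 (chromosome 19 from 39061015 to 39093944, GRCm38) was at 109.8, 106 and 119 CPM in inhibited antral organoids, against 4.01, 5.07 and 10.8 CPM with vehicle, and at 103, 97.1 and 95.5 CPM in inhibited corpus organoids, against 19.6, 14.7 and 13.3 CPM with vehicle. Its levels with inhibition thus lay close together in the 6 libraries, and the log2 fold change was 4.07 ± 0.29 in antrum (edgeR adjusted p = 3.5e-06) and 2.63 ± 0.26 in corpus (edgeR adjusted p = 3.3e-05). Its neighbour Cyp2c55, whose product oxidises arachidonic acid, was at 15.6, 8.58 and 11.4 CPM in inhibited antral organoids, against 0.354, 0.395 and 0.626 CPM with vehicle, and at 20.8, 18.2 and 13.9 CPM in inhibited corpus organoids, against 3.97, 2.1 and 1.36 CPM with vehicle. That is a log2 fold change of 4.67 ± 0.44 in antrum (edgeR adjusted p = 2.1e-05) and 2.82 ± 0.35 in corpus (edgeR adjusted p = 0.00014). Cyp2c66 was far lower, with 49 counts over the inhibited antral libraries and none over the vehicle ones, at least 14.4-fold higher against a floor of 3 counts over the group. In corpus it had 68 counts with inhibition and 14 with vehicle. Cyp2c23, of the same family, did not pass the test and lay between 1.76 and 7.85 CPM in all libraries.

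The pair Cyp2c65 and Cyp2c66 is shown by the sequence around the transcription start, because the genes moved the same way at very different levels. Their coding sequences are 96.3% identical, and 20.6% of the 50-base windows of Cyp2c65 also occur in another gene, so some reads cannot be placed for certain. The stretches run from 120 bases before the start to 20 after it on the plus strand (RefSeq, GRCm38.p6), at chr19:39060886-39061025 and chr19:39113778-39113917, and capitals mark the one match to the antioxidant response element core TGACNNNGC, read on the other strand, 8 bases before the start of Cyp2c65 and 4 after that of Cyp2c66.
Cyp2c65: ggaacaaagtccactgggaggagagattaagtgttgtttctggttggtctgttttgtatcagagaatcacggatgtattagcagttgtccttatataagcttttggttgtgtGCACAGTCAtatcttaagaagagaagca
Cyp2c66: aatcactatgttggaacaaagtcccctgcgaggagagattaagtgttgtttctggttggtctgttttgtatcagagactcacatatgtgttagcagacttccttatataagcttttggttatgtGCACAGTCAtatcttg

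The 3 tested Cyp2d genes all rose in both regions, and Cyp2d34 was at 8.23, 8.73 and 6.72 CPM in inhibited antral organoids, against 0.589, 0.922 and 0.501 CPM with vehicle. In corpus Cyp2d34 was at 8.28, 4.32 and 3.69 CPM with inhibition, against 0.711, 0.382 and 0.499 CPM with vehicle, and its log2 fold change was 3.52 ± 0.36 in antrum (edgeR adjusted p = 3.6e-05) and 3.33 ± 0.36 in corpus (edgeR adjusted p = 5.5e-05). The others were Cyp2d10 and Cyp2d26. Cyp2j6, of a family that forms epoxides from arachidonic acid, was at 57.6, 57.4 and 59.6 CPM in inhibited antral organoids, against 33.2, 29.5 and 34.4 CPM with vehicle, and at 58.7, 50.5 and 47.8 CPM in inhibited corpus organoids, against 37, 36.6 and 34.1 CPM with vehicle. Its rise was small and even between lines, at log2 0.85 ± 0.09 in antrum (edgeR adjusted p = 3.2e-05) and 0.54 ± 0.09 in corpus (edgeR adjusted p = 0.00063). The fatty-acid hydroxylase gene Cyp2u1 went the other way, with 10 counts over the inhibited antral libraries and 56 with vehicle, and 11 counts in corpus with inhibition and 86 with vehicle. Cyp2u1 fell at log2 -2.66 ± 0.49 in antrum (edgeR adjusted p = 0.0018) and -2.56 ± 0.47 in corpus (edgeR adjusted p = 0.0017). Cyp2b10, in liver the textbook target of the constitutive androstane receptor, was at 1.51, 1.3 and 1.72 CPM in inhibited antral organoids, against 1.77, 1.78 and 3.13 CPM with vehicle, and did not pass the test in either region, nor did Cyp2r1 and Cyp2j9.

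The Cyp3a class, whose human members handle many drugs, had 3 members here, and both that were tested rose in each region. Cyp3a13 was at 29.4, 31.7 and 29.1 CPM in inhibited antral organoids, against 8.37, 9.45 and 9.51 CPM with vehicle. In corpus it was at 28.5, 27.3 and 23.6 CPM with inhibition, against 9.8, 7.62 and 8.85 CPM with vehicle. The lines hardly differed, and the log2 fold change was 1.72 ± 0.11 in antrum (edgeR adjusted p = 1.9e-06) and 1.59 ± 0.11 in corpus (edgeR adjusted p = 3.6e-06). Cyp3a57 held 30 counts over the inhibited antral libraries and 2 with vehicle, a ratio of 13.2 with a counting interval of 3.36 to 114, and 22 and 5 counts in corpus. Its log2 fold change went to 2.83 without antral vehicle line 8026, against 3.50 with all libraries, and to 3.05 without corpus vehicle line 8025, against 2.42, and its corpus call was lost without inhibited line 8025 or 8026 or vehicle line 8026 or 8028. The third gene, Cyp3a41a, was too low to be tested.

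The Cyp4 genes, whose products hydroxylate the ends of fatty acids and eicosanoids, had 11 members. Of these, 7 were tested, and 3 rose and 1 fell in each region. Cyp4f16 was at 25.4, 25.6 and 24.2 CPM in inhibited antral organoids, against 21.2, 18.7 and 21.3 CPM with vehicle, and at 24, 24.7 and 23.4 CPM in inhibited corpus organoids, against 20.6, 19.5 and 19.4 CPM with vehicle. Its groups did not overlap, yet the log2 fold change was only 0.30 ± 0.07 in antrum (edgeR adjusted p = 0.0088) and 0.28 ± 0.07 in corpus (edgeR adjusted p = 0.013), and both calls were lost with total-count scaling. Cyp4f39, at log2 1.38 and 1.79, and Cyp4f40, at 2.31 and 1.81, rose too, with vehicle levels under 2 CPM. Cyp4f13 and Cyp4f17, the others of the 3 highest per kilobase, were at log2 0.27 ± 0.19 and -0.20 ± 0.32 in antrum and 0.11 ± 0.19 and -0.28 ± 0.31 in corpus and did not pass, nor did Cyp4f15. Cyp4v3 fell to 4.08, 3.84 and 3.28 CPM in inhibited antral organoids, against 5.13, 5.3 and 5.63 CPM with vehicle, and to 4.2, 3.38 and 3.08 CPM in inhibited corpus organoids, against 6.13, 6.44 and 4.39 CPM with vehicle. That is log2 -0.52 ± 0.18 in antrum (edgeR adjusted p = 0.047) and -0.67 ± 0.18 in corpus (edgeR adjusted p = 0.014). The antral call was lost when any single antral library was left out, and the corpus call without inhibited line 8026 or vehicle line 8025 or 8026.

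The 11 carboxylesterase members, which hydrolyse esters and amides in drugs and lipids, all lie on chromosome 8, and 10 were tested. In antrum 6 rose (Ces1d, Ces1f, Ces2a, Ces2b, Ces2c and Ces2g) and Ces2e fell, and in corpus 4 rose (Ces2a, Ces2b, Ces2c and Ces2g) and 0 fell; Ces1e, Ces1g and Ces2f did not pass in either. Ces2g was the most abundant, at 127, 151 and 146 CPM in inhibited antral organoids, against 47.3, 46.6 and 55.5 CPM with vehicle, and at 116, 111 and 132 CPM in inhibited corpus organoids, against 62.2, 56.1 and 62.1 CPM with vehicle. The mean was 2.84-fold higher with inhibition in antrum (edgeR adjusted p = 2e-06) and 1.99-fold higher in corpus (edgeR adjusted p = 2.6e-05). Ces2c followed at 49.9, 53.8 and 46.2 CPM in inhibited antral organoids, against 7.84, 6.29 and 16.6 CPM with vehicle, and at 60.4, 46.4 and 39.6 CPM in inhibited corpus organoids, against 18.7, 16.9 and 18.3 CPM with vehicle. It shares 36.1% of its 50-base windows with other genes, chiefly the pseudogene Ces2d-ps, so its level is uncertain.

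The steepest rise of any member with a mean of at least 1 CPM was that of Ces2a (chromosome 8 from 104734003 to 104741634), at 4.79, 4.36 and 4.06 CPM in inhibited antral organoids, against 0, 0.0659 and 0.125 CPM with vehicle, and at 1.85, 1.03 and 2.75 CPM in inhibited corpus organoids, against 0.0296, 0.0637 and 0.133 CPM with vehicle. It was close to absent from vehicle organoids: 357 counts stood against 5 in antrum, a ratio of 63.0 with a counting interval of 26.7 to 195, and 142 against 7 in corpus, a ratio of 26.0 with an interval of 12.3 to 65.9. Its log2 fold change was 5.89 ± 0.55 in antrum (edgeR adjusted p = 1.9e-05) and 4.59 ± 0.53 in corpus (edgeR adjusted p = 8.8e-05), and 6.58 and 5.24 without vehicle line 8028 of the region. Ces1f was at 8.8, 6.71 and 12.2 CPM in inhibited antral organoids, against 0.707, 0.395 and 2.71 CPM with vehicle, and its log2 fold change was 2.85 ± 0.52 (edgeR adjusted p = 0.0018), or 4.14 without antral vehicle line 8028. In corpus Ces1f was at 14.5, 8.73 and 9.47 CPM with inhibition, against 3.97, 5.42 and 4.86 CPM with vehicle, which did not overlap but missed the threshold (edgeR adjusted p = 0.067, or 0.0211 with the line as a replicate block). Ces1d, a lipase-like carboxylesterase, rose in antrum to 2.15, 2.2 and 2.7 CPM, against 0.707, 0.725 and 1.38 CPM with vehicle (log2 1.31 ± 0.31, edgeR adjusted p = 0.0074, or up to 0.0667 with a line left out). In corpus it was at 2.72, 3.08 and 4.7 CPM with inhibition, against 6.37, 5.96 and 4.42 CPM with vehicle, a log2 fold change of -0.67 ± 0.27 that missed the threshold (edgeR adjusted p = 0.077, or 0.0445 with the replicate block). Ces2e fell in antrum, at log2 -0.75 ± 0.22 (edgeR adjusted p = 0.022), a call that was lost without inhibited line 8025 or 8028 or vehicle line 8025 or 8026; in corpus its adjusted p was 0.069 by edgeR and 0.0405 with the replicate block. Ces2b rose at log2 1.52 ± 0.20 in antrum and 0.68 ± 0.20 in corpus, where the call was lost without line 8025 or 8026 of either treatment.

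The alpha-class glutathione transferases, which conjugate products of lipid oxidation and many drugs, were the class with the second highest summed level. All 4 members were tested, and 4 rose in antrum and 3 in corpus. Gsta4, which handles the lipid aldehyde 4-hydroxynonenal, was at 2408, 2268 and 2414 CPM in inhibited antral organoids, against 466, 429.5 and 556 CPM with vehicle. In corpus it was at 2951, 2697 and 1986 CPM with inhibition, against 653, 636 and 632 CPM with vehicle. The log2 fold change was 2.29 ± 0.14 in antrum (edgeR adjusted p = 1.3e-06) and 1.99 ± 0.14 in corpus (edgeR adjusted p = 3.5e-06), and no 50-base window of Gsta4 occurs in another gene. Gsta1 (chromosome 9 from 78230656 to 78242684) was at 1530, 1402 and 1464 CPM in inhibited antral organoids, against 147, 117 and 239.8 CPM with vehicle, and at 1975, 1789 and 1345 CPM in inhibited corpus organoids, against 256, 221 and 275 CPM with vehicle. Gsta1 thus rose at log2 3.13 ± 0.24 in antrum (edgeR adjusted p = 5.8e-06) and 2.76 ± 0.24 in corpus (edgeR adjusted p = 1.3e-05).

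Gsta1 cannot be counted apart from its copies with confidence, since 90.5% of its 50-base windows occur in another gene. The start of the coding sequence (120 bases, GENCODE release M21, GRCm38) is shown for Gsta1, for the near-identical predicted gene Gm3776, which is not a member by its symbol, and for Gsta2, with the 1 base that differs from Gsta1 in capitals.
Gsta1: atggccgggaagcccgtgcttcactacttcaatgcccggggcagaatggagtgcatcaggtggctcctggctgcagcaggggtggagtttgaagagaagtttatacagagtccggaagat
Gm3776: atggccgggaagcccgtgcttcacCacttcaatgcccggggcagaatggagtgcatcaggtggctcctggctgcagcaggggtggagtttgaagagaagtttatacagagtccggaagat
Gsta2: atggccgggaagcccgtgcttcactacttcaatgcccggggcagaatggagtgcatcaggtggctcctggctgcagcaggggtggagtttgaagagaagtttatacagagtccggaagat
Over the whole coding sequence, Gsta1 is 99.7% identical to Gm3776 and 97.5% to Gsta2, but 74.2% to Gsta3 and 66.5% to Gsta4. Gm3776 was listed at 1423, 1273 and 1347 CPM in inhibited antral organoids, against 134, 108 and 219.9 CPM with vehicle, and at 1871, 1687 and 1224 CPM in inhibited corpus organoids, against 229, 208 and 231 CPM with vehicle, slightly below Gsta1 in every library. Gsta2 was at 73.1, 66.3 and 84 CPM in inhibited antral organoids, against 15.3, 7.64 and 36.7 CPM with vehicle, and at 161, 144 and 89.1 CPM in inhibited corpus organoids, against 36.7, 36.4 and 37.8 CPM with vehicle. It rose in both regions, at log2 1.91 ± 0.43 in antrum (edgeR adjusted p = 0.006), or 2.73 without antral vehicle line 8028, and 1.83 ± 0.41 in corpus (edgeR adjusted p = 0.0063). The likeness of Gsta1 and Gsta2 extends in part to their promoters, whose 300-base windows are 74.6% identical. The stretches from 120 bases before to 20 after the start (RefSeq, GRCm38.p6) lie at chr9:78230549-78230688 on the plus strand and chr9:78347126-78347265 on the minus strand, and capitals mark the core GCGTG of the xenobiotic response element, bound by the aryl hydrocarbon receptor, 2 and 7 bases before the start.
Gsta1: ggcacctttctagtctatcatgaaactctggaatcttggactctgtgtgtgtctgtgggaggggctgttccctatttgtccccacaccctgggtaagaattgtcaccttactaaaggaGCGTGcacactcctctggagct
Gsta2: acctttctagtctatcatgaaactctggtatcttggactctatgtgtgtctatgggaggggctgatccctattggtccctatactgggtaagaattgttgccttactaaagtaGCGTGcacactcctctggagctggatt

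Gsta3 rose to 365, 415 and 443 CPM in inhibited antral organoids, against 212, 224 and 327 CPM with vehicle, a log2 fold change of 0.68 ± 0.19 (edgeR adjusted p = 0.021). In corpus it was at 421, 347 and 389 CPM with inhibition, against 238, 237 and 368 CPM with vehicle, where vehicle line 8028 reached the inhibited range and the change missed the threshold (edgeR adjusted p = 0.096, or 0.0293 with the replicate block). The antral call was lost without inhibited line 8026 or 8028 or vehicle line 8025 or 8026.

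The 7 mu-class genes lie together on chromosome 3 and moved unequally. Gstm1, Gstm2 and Gstm3 rose in both regions, Gstm6 in antrum, and Gstm5 fell in both. Gstm1 was at 1154, 1071 and 1253 CPM in inhibited antral organoids, against 241, 199.7 and 277 CPM with vehicle, and at 1240, 1301 and 967 CPM in inhibited corpus organoids, against 427, 422 and 379 CPM with vehicle. Its log2 fold change was 2.28 ± 0.14 in antrum (edgeR adjusted p = 1.3e-06) and 1.51 ± 0.13 in corpus (edgeR adjusted p = 1.5e-05). Gstm3 was at 267, 209 and 316 CPM in inhibited antral organoids, against 21.6, 16.2 and 27.3 CPM with vehicle, and at 239, 262 and 236 CPM in inhibited corpus organoids, against 51.6, 49.5 and 40.1 CPM with vehicle. It had the largest rise of the class, at log2 3.61 ± 0.20 in antrum (edgeR adjusted p = 1e-06) and 2.38 ± 0.19 in corpus (edgeR adjusted p = 7.8e-06), although 28.8% of its 50-base windows occur elsewhere. Gstm2 followed at log2 1.33 ± 0.15 in antrum and 0.68 ± 0.14 in corpus. Gstm5 was at 10.3, 11.1 and 12.5 CPM in inhibited antral organoids, against 22.7, 19.6 and 28.6 CPM with vehicle, and at 12.4, 10.5 and 11.7 CPM in inhibited corpus organoids, against 23, 29.7 and 27.2 CPM with vehicle. It was the only member with a mean of at least 10 CPM that fell, at log2 -1.06 ± 0.15 in antrum (edgeR adjusted p = 0.00028) and -1.21 ± 0.15 in corpus (edgeR adjusted p = 0.00011), and none of its 50-base windows occurs in another gene. Gstm6 missed the threshold in corpus (edgeR adjusted p = 0.06, or 0.0135 with the replicate block). Gstm4 and Gstm7 did not pass in either region, although with the block Gstm4 did in both (adjusted p = 0.0221 in antrum and 0.00599 in corpus) and Gstm7 in antrum (adjusted p = 0.0156).

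Among the omega, pi and theta classes, 5 of 8 genes rose in antrum and 3 in corpus. Gsto1, whose product reduces dehydroascorbate, had the highest level of all members over the 12 libraries, at 1431 CPM per kilobase, though in inhibited antral organoids Gsta4 was higher, at 1867 against 1775 CPM per kilobase for Gsto1. It was at 4052, 3360 and 3358 CPM in inhibited antral organoids, against 1563, 1361 and 1689 CPM with vehicle, and at 5861, 4358 and 2881 CPM in inhibited corpus organoids, against 2475, 2066 and 1703 CPM with vehicle. The inhibited corpus libraries were wide apart but did not overlap with vehicle, and the log2 fold change was 1.22 ± 0.22 in antrum (edgeR adjusted p = 0.0017) and 1.07 ± 0.22 in corpus (edgeR adjusted p = 0.0037). Gstp1, of the pi class that is abundant in many epithelia, was at 766, 794 and 852 CPM in inhibited antral organoids, against 395, 382 and 470.3 CPM with vehicle, and at 667, 789.6 and 738 CPM in inhibited corpus organoids, against 457, 524 and 547 CPM with vehicle. The change of Gstp1 was log2 0.95 ± 0.10 in antrum (edgeR adjusted p = 3.9e-05) and 0.52 ± 0.10 in corpus (edgeR adjusted p = 0.0021). Gstp2, 98.1% identical to Gstp1 in coding sequence, rose in antrum at log2 0.80 ± 0.20 (edgeR adjusted p = 0.012), a call lost without inhibited line 8025, and had a corpus value of 0.57 ± 0.20 (edgeR adjusted p = 0.051, or 0.00763 with the replicate block). Gstt2 rose in both regions and Gstt3 in antrum, at log2 0.67 and 0.57 for Gstt2 and 0.52 for Gstt3, and Gsto2, Gstp3 and Gstt1 did not pass. The antral call of Gstt3 was lost without inhibited line 8025 or vehicle line 8026. With the replicate block, Gstt3 passed in corpus (adjusted p = 0.00853) and Gsto2 and Gstt1 in antrum (adjusted p = 0.0176 and 0.0264).

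The microsomal glutathione transferases, membrane proteins that also take part in leukotriene and lipid peroxide metabolism, gave 3 tested members. Mgst3 was at 345, 348 and 352 CPM in inhibited antral organoids, against 70.1, 78.3 and 88.7 CPM with vehicle, and at 376, 329.6 and 310 CPM in inhibited corpus organoids, against 96.7, 83.5 and 90.1 CPM with vehicle. Its lines agreed closely, and the log2 fold change was 2.14 ± 0.10 in antrum (edgeR adjusted p = 4.3e-07) and 1.91 ± 0.10 in corpus (edgeR adjusted p = 1.3e-06). Mgst2 rose as well, at log2 1.43 ± 0.17 in antrum and 1.22 ± 0.17 in corpus. Mgst1 was at 78.2, 70.2 and 85.8 CPM in inhibited antral organoids, against 46.7, 42.8 and 77 CPM with vehicle, and at 99.9, 98.1 and 69.6 CPM in inhibited corpus organoids, against 91.4, 94.6 and 70.6 CPM with vehicle. The groups overlapped in both regions and neither change passed (edgeR adjusted p = 0.11 and 0.86), although the antral one did with the replicate block (adjusted p = 0.00388) and without vehicle line 8028 (adjusted p = 0.00726).

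**Figure D3:**
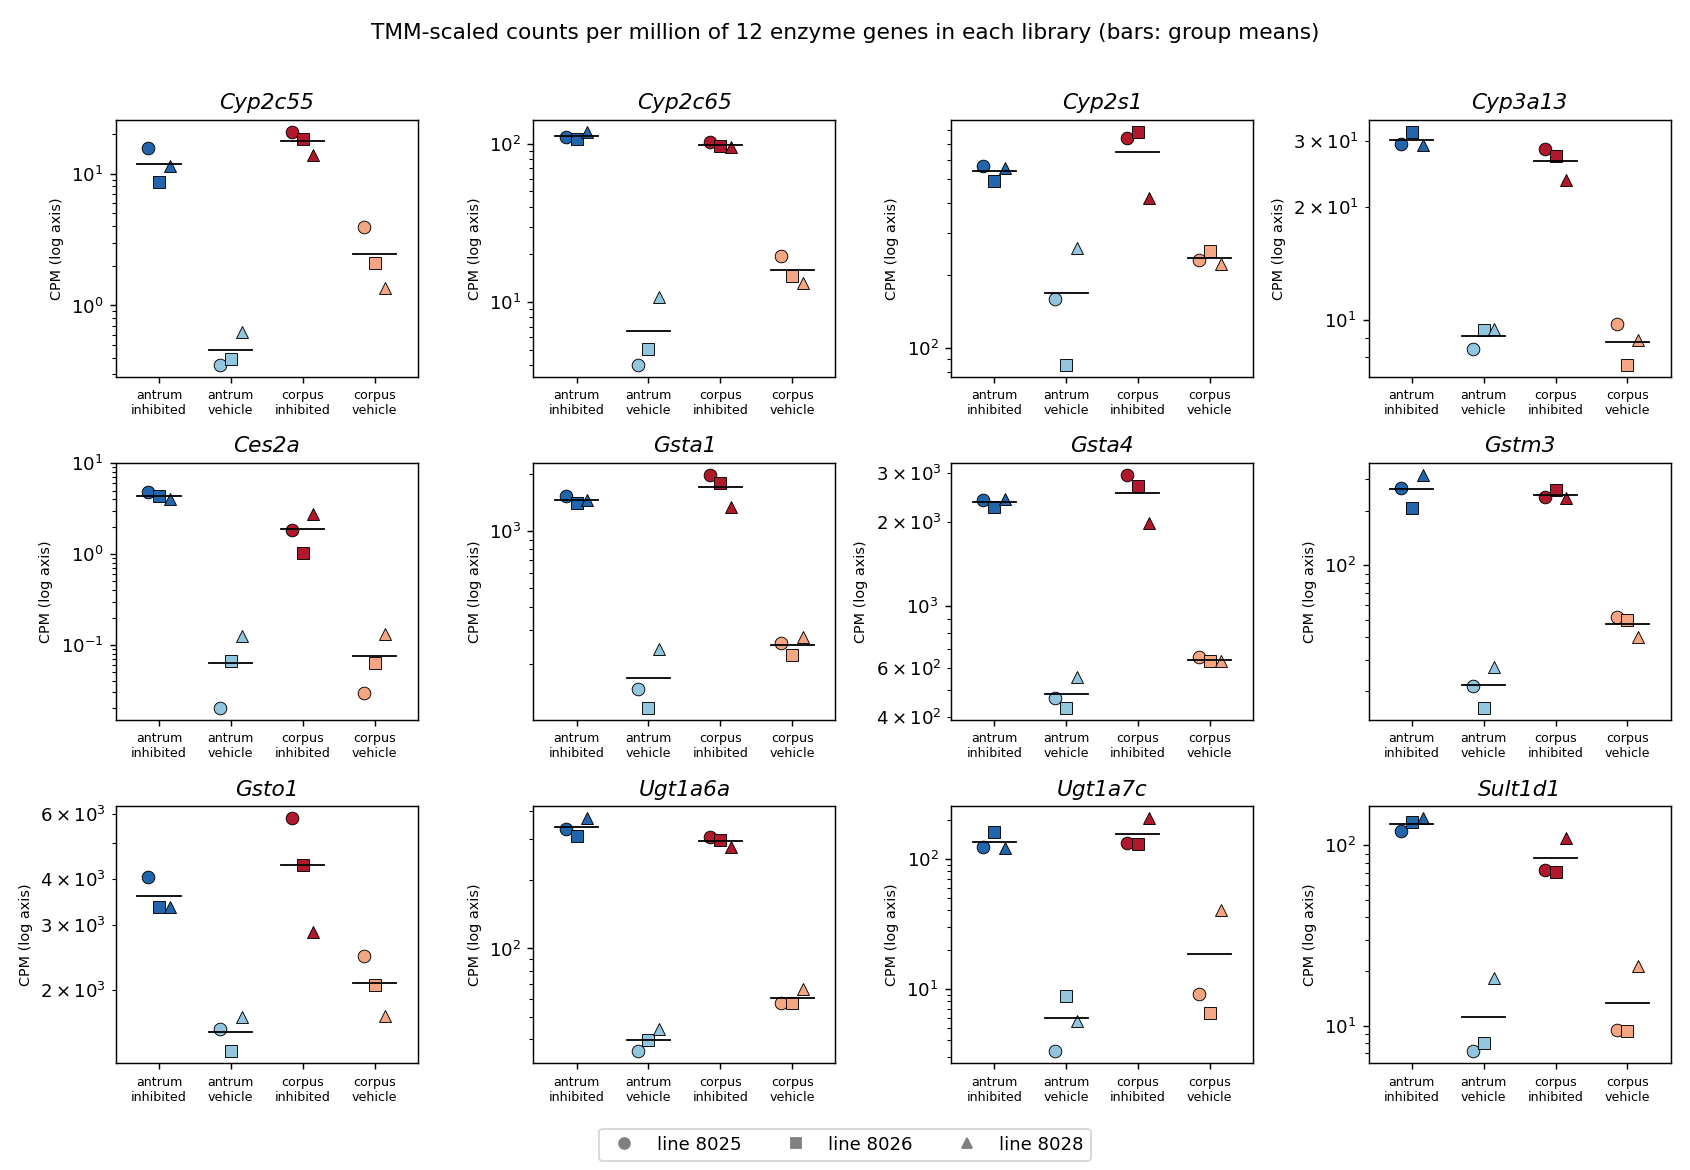
Points give CPM on a log axis for 12 members in each library, by region and treatment, with the marker shape for the line and a bar for the group mean; the antral vehicle library of line 8025 held no count of Ces2a and is drawn at 0.02 CPM. Inhibited libraries lie above the vehicle libraries of their region for every gene plotted, and the antral vehicle libraries of Gstm3, from 16.2 to 27.3 CPM, lie below the corpus vehicle libraries, from 40.1 to 51.6 CPM.

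Glucuronosyltransferases attach glucuronic acid to phenols, bilirubin, steroids and drugs. Of 12 members, 6 were tested, and 5 rose in antrum and 4 in corpus. Ugt1a6a, whose product acts on small phenols, was at 334, 309 and 372 CPM in inhibited antral organoids, against 35.5, 39.8 and 44.6 CPM with vehicle, and at 306, 299 and 278 CPM in inhibited corpus organoids, against 57.6, 57.7 and 66.5 CPM with vehicle. Its lines agreed closely, and the log2 fold change was 3.08 ± 0.10 in antrum (edgeR adjusted p = 5.7e-08) and 2.28 ± 0.10 in corpus (edgeR adjusted p = 6.6e-07). Ugt1a7c was at 122, 159 and 119.8 CPM in inhibited antral organoids, against 3.3, 8.83 and 5.63 CPM with vehicle, and at 132, 129.8 and 205 CPM in inhibited corpus organoids, against 9.06, 6.5 and 40.1 CPM with vehicle. Corpus line 8028 had the highest level of Ugt1a7c under either treatment. The log2 fold change was 4.45 ± 0.64 in antrum (edgeR adjusted p = 0.00038) and 3.07 ± 0.58 in corpus (edgeR adjusted p = 0.0021), or 4.34 in corpus without vehicle line 8028. Ugt1a1, the bilirubin enzyme, and Ugt1a6b rose as well, with vehicle levels under 2 CPM, at log2 2.65 and 3.66 in antrum and 2.17 and 2.54 in corpus.

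The 7 Ugt1a members are annotated on chromosome 1 as transcripts of one locus that differ in their first exon and share the rest, and 52.1% or more of the 50-base windows of each occur in another gene, mainly of this locus. Their division is therefore uncertain, and their sum, for which no test was made, is the safer measure. It averaged 479.6 ± 17.5 CPM in inhibited antral organoids and 46.8 ± 6.24 CPM with vehicle, and 459 ± 26.2 CPM in inhibited corpus organoids and 80.8 ± 24.2 CPM with vehicle (SD, n = 3 each). That is 10.2-fold and 5.68-fold. Of the Ugt2b genes, which act on steroids and other lipids, 2 were tested. Ugt2b34 was at 525, 477 and 607 CPM in inhibited antral organoids, against 196, 128 and 382 CPM with vehicle, a log2 fold change of 1.19 ± 0.31 (edgeR adjusted p = 0.013). That call was lost without the low-count filter, with only the 6 antral libraries and without line 8025. In corpus it was at 714, 786 and 543 CPM with inhibition, against 457, 500.5 and 432 CPM with vehicle, which did not overlap but missed the threshold (edgeR adjusted p = 0.19, or 0.0333 with only the 6 corpus libraries). Ugt2b35 did not pass in either region (edgeR adjusted p = 0.07 and 0.54), but did in antrum with the replicate block (adjusted p = 0.0208) and without antral vehicle line 8028 (adjusted p = 0.000276).

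Of 7 sulfotransferase members, 5 were tested, and 4 rose in antrum and 3 in corpus. Sult1d1, which in mouse sulfates phenols and catecholamines, was at 119.8, 134 and 142 CPM in inhibited antral organoids, against 7.19, 7.97 and 18.3 CPM with vehicle, and at 72.6, 71.2 and 110.4 CPM in inhibited corpus organoids, against 9.45, 9.27 and 21.3 CPM with vehicle. Line 8028 was the highest of each group, and the log2 fold change was 3.55 ± 0.40 in antrum (edgeR adjusted p = 7.4e-05) and 2.67 ± 0.39 in corpus (edgeR adjusted p = 0.00039). Sult1b1, which acts on thyroid hormones and phenols, was at 28.5, 29.3 and 33.7 CPM in inhibited antral organoids, against 1.59, 1.88 and 3.63 CPM with vehicle, and at 26, 23.7 and 15.2 CPM in inhibited corpus organoids, against 2.81, 2.87 and 2.56 CPM with vehicle. Sult1b1 rose at log2 3.67 ± 0.28 in antrum (edgeR adjusted p = 5.4e-06) and 2.97 ± 0.27 in corpus (edgeR adjusted p = 1.7e-05). Sult1c2, the most abundant of the class, was at 216, 227 and 239 CPM in inhibited antral organoids, against 41.3, 42.7 and 74.9 CPM with vehicle, and at 267, 241 and 181 CPM in inhibited corpus organoids, against 99, 93.2 and 73.5 CPM with vehicle. It rose at log2 2.10 ± 0.23 and 1.37 ± 0.22. The cholesterol sulfotransferase gene Sult2b1 passed only narrowly in antrum, at log2 0.42 ± 0.14 (edgeR adjusted p = 0.046), and lost that call without any single antral library but vehicle line 8026, and Sult4a1 did not pass.

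The 20 members too low to be tested, spread over the Cyp2, Cyp3a, Cyp4, carboxylesterase, Ugt and Sult classes, held 519 counts in all, and none exceeded a mean of 0.29 CPM or 0.494 CPM in any library. Ugt2a3 had 26 counts over the inhibited antral libraries and 4 with vehicle, a ratio of 5.73 with a counting interval of 1.99 to 22.6, and 16 and 1 in corpus, a ratio of 20.5 with an interval of 3.19 to 860. Cyp2c68 had 12 counts over the inhibited antral libraries and none with vehicle. Ugt1a5 had 18 counts over the inhibited corpus libraries and 3 with vehicle, a ratio of 7.69 with an interval of 2.25 to 40.8. These 3 were singled out after their values were seen.

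Between the regions, the question was whether antral and corpus organoids differ in these genes at either treatment. With inhibition, 0 of the 65 tested members passed the edgeR test for antrum against corpus, against 0.0619% of all tested genes, and DESeq2 called 0 as well. An unadjusted p below 0.05 was found for 9 of 65, against 9.24% of all tested genes. With vehicle, 5 members were lower in antral organoids and 0 higher, against 0.198% of all tested genes called in either direction, and 29 had an unadjusted p below 0.05, against 15.4% of all tested genes. Ces1d was at 0.707, 0.725 and 1.38 CPM in antral vehicle libraries, against 6.37, 5.96 and 4.42 CPM in corpus vehicle libraries (log2 -2.56 ± 0.30, edgeR adjusted p = 0.021). Gstm3 was at 21.6, 16.2 and 27.3 CPM, against 51.6, 49.5 and 40.1 CPM (log2 -1.12 ± 0.19, edgeR adjusted p = 0.049). The others were Gstm6, Gstm1 and Ugt1a6a, at log2 -1.27, -0.78 and -0.60. Of the 34 members with a mean of at least 10 CPM, 30 had a value below 0 with vehicle and 18 with inhibition, and the median log2 difference was -0.46 with vehicle and -0.01 with inhibition.

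These regional calls depended on single libraries and on the tool. The count of 5 lower with vehicle fell to 0 without corpus vehicle line 8025, corpus vehicle line 8026 or antral vehicle line 8025, to 1 without antral vehicle line 8026 or with RLE scaling, and rose to 10 without antral vehicle line 8028 and to 14 with DESeq2 or without both libraries of corpus line 8028. Of all tested genes, 0.158%, 1.6% and 4.33% were called lower in those last 3 settings, against 0.13% in the main fit. The share was 0.00609%, 0.0061% and 0.00606% in the settings with 0 members, and 0.0365% and 0.0557% in those with 1. With inhibition, 3 members were higher and 4 lower in antral organoids without inhibited corpus line 8028, where 7.42% of all tested genes were higher and 3.97% lower.

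**Figure D4:**
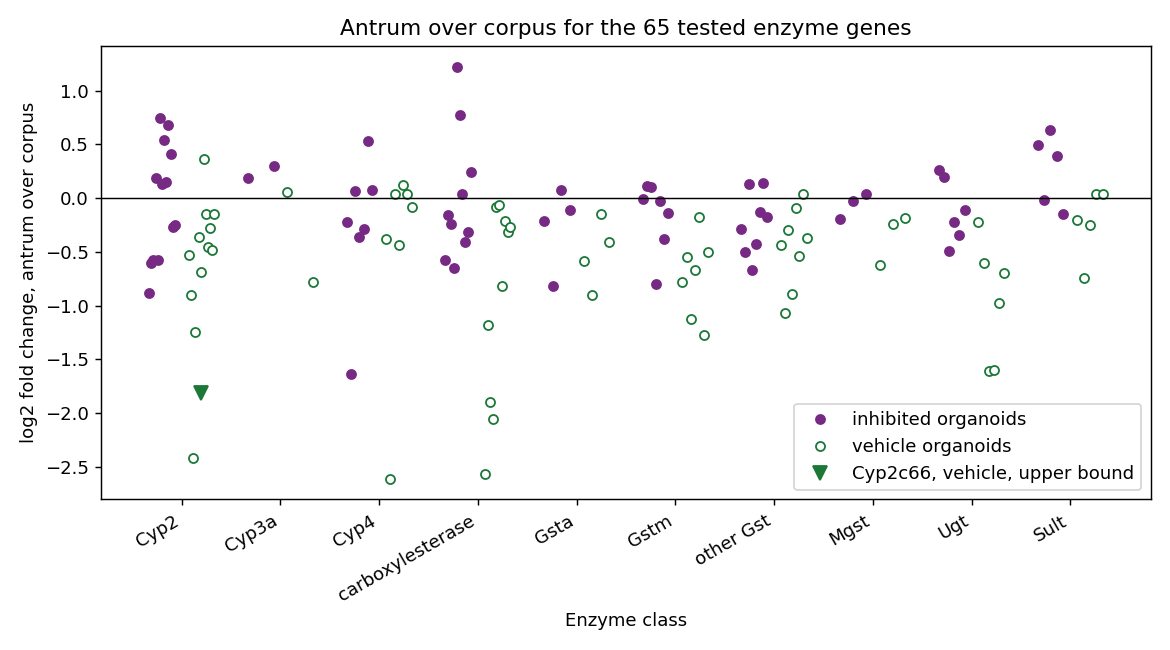
Points give the log2 fold change of antral over corpus organoids for the 65 tested members by enzyme class, filled for inhibited and open for vehicle organoids; the triangle is an upper bound for Cyp2c66, at -1.81, because its antral vehicle libraries held no counts. With vehicle 57 of 65 members lie below 0, and with inhibition 38 of 65, against 51% and 48.6% of all tested genes.

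The difference of the 2 treatment effects, antral minus corpus, was tested as an interaction. With edgeR 0 of 65 members passed, against 0.00619% of all tested genes, but 17 members had an unadjusted p below 0.05, against 3.95% of all tested genes. The value was larger in antrum for 57 of 65 members and smaller for 8. Of all tested genes, 43.7% had a smaller value in antrum. With the line as a replicate block, Gstm3 (log2 difference 1.23, adjusted p = 0.0019), Gstm1 (0.78, adjusted p = 0.0454) and Gstm2 (0.66, adjusted p = 0.0454) passed. With DESeq2, Gstm3, Ugt1a6a and Ces1d did, at log2 differences of 1.22, 0.80 and 1.99. Without antral vehicle line 8028, Cyp2c65 was the 1 member that passed edgeR (log2 difference 1.97, adjusted p = 0.026). These settings called 0.0433%, 0.0557% and 0.0121% of all tested genes, in that order.

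The enzymes depend on receptors, electron donors, cofactors and transporters, and lists of these held 86 other genes, of which 70 were tested. In antrum 44 rose and 2 fell, against 16.3% and 13.4% of all tested genes called higher and lower. In corpus 44 rose and 6 fell, against 15.5% and 15.4% of all tested genes. The same shares apply to each list below. Of 13 receptor and transcription factor genes tested, 6 rose in antrum and 8 in corpus, and 1 fell in corpus. The repressor gene Ahrr, a target of the aryl hydrocarbon receptor, was at 26.7, 44.4 and 40.6 CPM in inhibited antral organoids, against 1.42, 2.24 and 1.88 CPM with vehicle (log2 4.30 ± 0.45, edgeR adjusted p = 4.1e-05), and its corpus value was log2 3.84 ± 0.43 (edgeR adjusted p = 7.9e-05). Nr1i2, the pregnane X receptor, rose at log2 1.99 ± 0.19 in antrum and 1.29 ± 0.18 in corpus, and Nr1h4, the bile acid receptor, at 2.07 ± 0.15 and 1.90 ± 0.15. Of 6 genes that pass electrons to cytochromes P450, 4 rose in each region, among them the reductase gene Por, at 0.80 ± 0.16 and 0.70 ± 0.16, and the cytochrome b5 genes Cyb5a, at 0.86 ± 0.15 and 0.86 ± 0.15, and Cyb5b, at 0.47 ± 0.08 and 0.49 ± 0.08.

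Of 18 other phase I genes tested, 14 rose and 0 fell in antrum, and 12 rose and 2 fell in corpus. Cyp1a1, the classical aryl hydrocarbon receptor target, was at 32.8, 50.1 and 42.6 CPM in inhibited antral organoids, against 0, 0.0329 and 0.125 CPM with vehicle, and at 20.9, 35.6 and 50.8 CPM in inhibited corpus organoids, against 0.118, 0 and 0 CPM with vehicle. Nqo1, a quinone reductase and NRF2 target, rose at log2 2.73 ± 0.17 in antrum and 2.37 ± 0.17 in corpus. The aldehyde dehydrogenase gene Aldh3a1 rose at 3.30 ± 0.18 and 2.46 ± 0.18, and was the 1 gene of these lists that differed between regions with vehicle, lower in antrum at log2 -1.14 (edgeR adjusted p = 0.041). Cofactor supply rose for 11 of 14 genes in antrum and 12 in corpus. These included Ugdh, which makes the glucuronic acid donor, at log2 1.38 ± 0.17 and 1.19 ± 0.17, the carrier gene Slc35d1, which brings that donor into the endoplasmic reticulum, at 1.34 ± 0.12 and 1.32 ± 0.12, and the sulfate transporter gene Slc26a2, at 1.94 ± 0.16 and 1.95 ± 0.16. Of 7 other phase II genes, 3 rose and 1 fell in each region. The risen ones were the mitochondrial and peroxisomal glutathione transferase gene Gstk1, at log2 1.38 ± 0.15 in antrum and 1.07 ± 0.15 in corpus, the acetyltransferase gene Nat2, at 0.65 ± 0.10 and 0.55 ± 0.10, and the thiopurine methyltransferase gene Tpmt, at 0.58 ± 0.18 and 0.58 ± 0.18. Of 12 efflux and uptake genes, 6 rose and 1 fell in antrum and 5 rose and 2 fell in corpus. The prostaglandin transporter gene Slco2a1 rose at log2 4.20 ± 0.46 and 3.74 ± 0.48, the conjugate exporter gene Abcc3 rose at log2 1.49 ± 0.20 and 1.22 ± 0.20, and the drug exporter gene Abcb1b fell at -0.92 ± 0.19 and -1.38 ± 0.19.

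Cell type markers moved with treatment beside these genes, and their part in the results was not tested. For comparison, 16.3% of all tested genes were called higher and 13.4% lower in antrum, and 15.5% and 15.4% in corpus. Calls could come only from tested markers: 4 of 6 for enterocytes, 3 of 5 for chief cells, 2 of 4 for parietal cells, 2 of 5 for hepatocytes and 2 of 3 for tuft cells. Of 5 surface mucous cell markers, 4 rose and 1 fell in each region, with summed levels of 3383 to 4418 CPM in antral inhibited, 1189 to 1716 CPM in antral vehicle, 1795 to 3481 CPM in corpus inhibited and 1317 to 1743 CPM in corpus vehicle libraries. Most of the vehicle sums was Gkn3, the one that fell, and the others rose by more than the sums: Tff1 averaged 3017 CPM in antral inhibited and 259 CPM in antral vehicle, and 2095 CPM in corpus inhibited and 214 CPM in corpus vehicle libraries. Muc5ac averaged 65.5 and 0.662 CPM in antrum and 42.4 and 0.814 CPM in corpus, with inhibition and with vehicle. Of 3 neck and gland mucous cell markers, 1 rose and 2 fell in each region, and their sum was 939 to 1599 CPM in antral inhibited, 728 to 1194 CPM in antral vehicle, 755 to 1214 CPM in corpus inhibited and 858 to 1196 CPM in corpus vehicle libraries. Tff2 averaged 1112 CPM in antral inhibited, 149.7 CPM in antral vehicle, 829 CPM in corpus inhibited and 172 CPM in corpus vehicle libraries, and Muc6, one of those that fell, 32.5, 338, 12.3 and 203 CPM in the same groups. Of 3 tuft-cell markers, 1 fell in each region, Dclk1, which averaged 0.607, 7.15, 0.435 and 5.48 CPM in those groups, and their sum was 1.23 to 1.91, 6.88 to 11.3, 1.2 to 1.98 and 4.68 to 8.75 CPM. The 5 chief-cell markers summed to 20.2 to 43.3 CPM in antral inhibited, 95.1 to 138 CPM in antral vehicle, 25.3 to 30.7 CPM in corpus inhibited and 140 to 372 CPM in corpus vehicle libraries, and 2 fell in each region. The 4 parietal-cell markers summed to 86.8 to 89.9 CPM in antral inhibited, 129 to 165 CPM in antral vehicle, 78.8 to 97.9 CPM in corpus inhibited and 169 to 206 CPM in corpus vehicle libraries, and 1 fell in antrum and 2 in corpus; nearly all of the sum was Kcnq1. Of 6 enterocyte markers, 2 rose in antrum and 1 in corpus, and their sum was 362 to 382 CPM in antral inhibited, 295 to 305 CPM in antral vehicle, 243 to 370 CPM in corpus inhibited and 203 to 342 CPM in corpus vehicle libraries, nearly all from Vil1. The 5 hepatocyte markers summed to 45.5 to 65.9 CPM in antral inhibited, 55.2 to 84.2 CPM in antral vehicle, 52.5 to 93.2 CPM in corpus inhibited and 58.9 to 156 CPM in corpus vehicle libraries, most of it from Apob, which the gut also expresses, and 1 rose in each region. The liver-defining Alb was at 0 in 8 of 12 libraries and at most 0.186 CPM, and Tat was at 0 in 11 of 12. Fibroblast markers summed to at most 1.47 CPM and endothelial markers to at most 1.09 CPM in any library. Immune markers summed to 17.2 to 28.0 CPM in antral inhibited and 9.85 to 27.5 CPM in antral vehicle libraries. In corpus they summed to 15.5 to 51.3 CPM with inhibition and 28.6 to 38.55 CPM with vehicle. Of the 2 immune markers tested, 1 rose in antrum and 0 in corpus.

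Promoter windows, from 250 bases before to 50 after the start, were matched for 72 of the 85 members (86 windows, RefSeq, GRCm38.p6) and searched on both strands. The core of the xenobiotic response element, GCGTG, occurred in 25.6% of member windows and in 30.3% of the 33 windows of members that rose in both regions, against 32.4% of all 32851 windows. The antioxidant response element core TGACNNNGC occurred in 11.6% and 12.1%, against 12.4% of all windows. The TCF motif CTTTGAT, bound by the transcription factors of the Wnt pathway, was found in 0 of the 86 windows, against 3.73% of all windows. The motifs do not overlap in the stretches printed above. A match is a description and not a binding site, and no match says only that these letters are not in the window.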

How the data were processed

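PolyA RNA was sequenced from 12 organoid cultures. The authors deposited 1 table of expected counts per gene (already whole numbers); the build was GRCm38, and RSEM 1.3.3, STAR 2.7.8a, FastQC 0.11.8 and cutadapt 2.3 are listed in the submitters' processing notes. The sources used here do not give the annotation release, the strandedness or the handling of reads shared by paralogs. Groups follow the labels, and 5 transgene rows were left out.

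Tests used edgeR 4.0.16 in R 4.3.3 (TMM scaling, filterByExpr by group, robust quasi-likelihood fit of all 12 libraries, 8 residual degrees of freedom), two-sided, with Benjamini-Hochberg adjustment at 0.05 over 16152 genes. CPM values use TMM-scaled totals. Ratio intervals are exact at 95% and cover counting error only. The main fit held the group only and did not use the pairing described next, so its p-values measure the spread between lines within groups. The replicate block, listed below, added a term for the line. The steps were tested on simulated data. Within a region the same lines were treated both ways, and deviations of the 6 pairs correlated at 0.425 to 0.724, so lines pair the libraries; across regions, where they correlated at -0.369 to 0.553, they do not. Replicate libraries all differed by more than counting noise (chi-square over its degrees of freedom 10 to 280).

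Alternatives were DESeq2 1.42.0, scaling by RLE or by total counts, testing without the filter, a replicate block, fewer libraries and leaving out libraries or lines. Members and lists were chosen with earlier results of these data known. Members named in full were, with an adjusted p below 0.05 and a mean of at least 1 CPM, the 12 largest changes each way per treatment comparison and the 6 largest each way for the regional comparisons and the interaction, plus the 3 with the highest level per length in each class and up to 3 genes per pathway list that passed in both regions; others were named after their values were seen.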

Additional observations from a re-analysis of the deposited data

How the results depend on the processing

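The counts of risen members stayed within 1.5 times their main values under the 15 corpus and 16 antral alternatives, at 29 to 41 in corpus (main value 35) and 35 to 49 in antrum (43). Under the same alternatives, 7.67% to 20.5% of all tested genes were called higher in corpus (main value 15.5%). In antrum 8.36% to 20.6% were (16.3%). Both lowest shares were those without the low-count filter, where 28593 genes were tested. Of the single calls, 29 of 35 rises and 2 of 3 falls in corpus passed under every alternative in which the gene was tested. In antrum 34 of 43 rises and 2 of 4 falls did. Among these, Cyp2d10 was tested under 14 of the 15 corpus alternatives and Cyp3a57 under 15 of the 16 antral ones. No called value changed sign. The smaller counts moved more. The 3 falls in corpus became 5 with total-count scaling and 5 with the replicate block, and 2 to 5 when a library or line was left out. In these settings 23.1%, 23.7% and 6.98% to 21.2% of all tested genes were lower, against 15.4% in the main fit. The 4 falls in antrum became 2 to 3 when a library or line was left out, where 6.19% to 10.5% of all tested genes were lower, against 13.4% in the main fit. The 5 members lower in antral vehicle organoids became 1 with RLE scaling, 1 with only the 6 libraries compared and 14 with DESeq2, and 0 to 14 when a library or line was left out. The shares of all tested genes called lower there were 0.0557%, 0.0703%, 1.6% and 0.00606% to 4.33%, against 0.13% in the main fit. With inhibition, the regional counts were 0 to 3 higher and 0 to 6 lower when a library or line was left out; without both libraries of corpus line 8028, 9.13% of all genes were higher and 5.46% lower. The interaction, with 0 calls, gave 3 with the replicate block, 3 with DESeq2 and 0 to 1 with a library or line left out. The shares of all tested genes called were 0.0433%, 0.0557% and 0 to 0.0303%, against 0.00619% in the main fit. The causes were not tested. The replicate block raised the rises to 41 in corpus and 49 in antrum, and over all genes to 3201 higher and 3821 lower in corpus and 3333 and 3261 in antrum. With 3 lines a group, and shared sequence among paralogs, low-count changes and the division within the Gsta1, Gstp, Ugt1a and Cyp2c65 copies are uncertain.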
